A study of Glycine max with 18 samples.

Results

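Seedling-only loci are soybean loci that were read at a clear level in young seedlings and hardly at all in seeds. They were chosen by their normalized values in all 18 libraries: 20 or more in each of the 3 seedling libraries, and under 1 in each of the 15 seed-stage libraries. Of 51546 loci listed in the files, 241 met both limits, which is 0.468%. The values that chose the loci are also those that set seedlings apart from seeds, so that difference is given as a description and without a test.

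The messenger RNA of soybean (Glycine max), cultivar Williams 82, was sequenced in 18 libraries, 3 biological replicates at each of 6 stages. No treatment and no altered genotype was part of the design, and all plants were grown in a greenhouse. For the cotyledon stage, embryos were taken out of seeds with a length of 2.5 to 3.5 mm, and for early maturation out of seeds with a length of 6 to 7 mm. The mid maturation stage used embryos of 200 to 250 mg seeds. Late maturation used wholly yellow seeds of 230 to 500 mg, for which the protocol names the seed coat as well as the embryo. Mature dry seeds and whole seedlings 8 days after sowing completed the series. The headings of the seedling columns carry the letters COT, as do those of the cotyledon-stage columns. The labels, which name whole seedlings, were followed, and no marker gene was available to check the tissue. The sample titles write the seedling age as 8 DAI, which they do not spell out. The labels do not say whether 1 replicate pools several plants or seeds.

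A maturing seed embryo fills its cells with storage protein and oil, and then dries and rests. In germination the seed takes up water. The seedling then breaks down these reserves, extends a root and a shoot, opens its first leaves and begins photosynthesis. Many genes that serve roots, stems and green leaves are little used in seeds. A whole seedling, as named by the labels, pools all of these organs. In such bulk material, fewer cells of a type and less RNA per cell cannot be told apart.

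Loci are given by the identifiers of the files. Of the 51546 identifiers, 0 matched a RefSeq table of 59048 soybean genes, so no role is given to any locus, and the tissues could not be checked against marker genes. A value is a read number divided by a scaled library size, with 1 scaling factor for each library, and without correction for transcript length, so a level or a rank among loci is one of reads and not of transcripts. Soybean carries many near-identical gene copies, and how reads shared by copies were counted is not given in the sources used here. The value of any locus is uncertain where it has such a copy.

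The seedling means of the 241 loci, in reads without correction for length, ran from 21.3 to 166, with a median of 36.0 and with the middle 50% between 28.1 and 53.6. By seedling mean they ranked from 482 to 8243 among all listed loci. Together they held 1.48%, 1.58% and 1.54% of the summed values of seedling replicates 1, 2 and 3. In the seed-stage libraries they held between 0.00183% and 0.0113%. Of the 3615 values of these loci in seed-stage libraries, 2016 (55.8%) were 0.

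**Figure D1:**
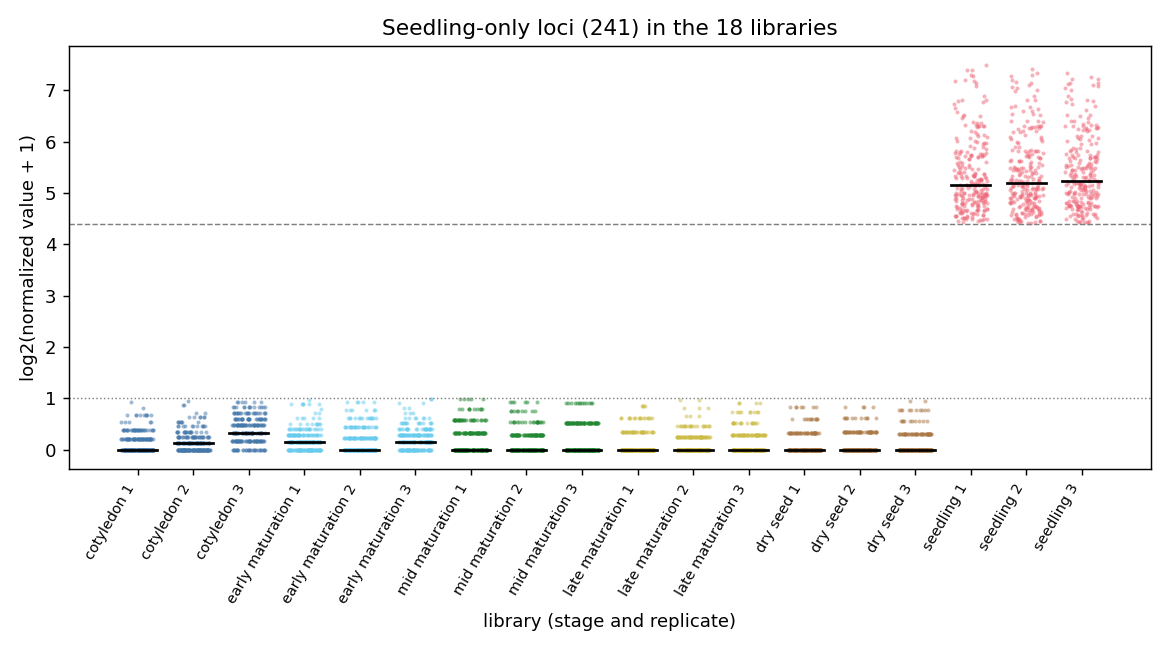
Values of the 241 seedling-only loci in the 18 libraries, as log2(normalized value + 1). Each point is 1 locus, black bars are medians over loci, and the dashed and dotted lines mark the limits of the rule at 20 and at 1. The seedling points lie above the dashed line and the seed-stage points below the dotted line, as the rule requires, with medians at 0 in 11 of the 15 seed-stage libraries.

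Among the loci with the highest values, Glyma.09G062600 stood at 168, 170 and 161 in seedling replicates 1, 2 and 3, with 21 reads in all seed-stage libraries together. Glyma.03G101800 stood at 179, 154 and 149, with 15 reads in all seed-stage libraries together. Glyma.03G221400 stood at 167, 142 and 148, with 13. The highest seed-stage values of these loci were 0.659, 0.649 and 0.908, which the rule holds under 1. Their coefficients of variation over the 3 seedling libraries were 2.89%, 10.0% and 8.58%. Over the 241 loci the median of this coefficient was 8.16%. The most even of them was Glyma.10G212300, at 51.3, 50.9 and 51.0.

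The same rule applied to other stages found few loci. With the cotyledon stage in the place of the seedling it found 1 locus, and with early maturation 2. With mid maturation, late maturation and dry seed it found 0 each. No test was run on these numbers, and they depend on which stages were sampled.

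None of the 241 loci was without a read in the seed-stage libraries. The pooled seed-stage reads of a locus ranged from 1 to 56, with a median of 11, and reads were found in 1 to 15 of the 15 libraries, with a median of 7. Set against the pooled level in seeds, the pooled seedling level was 319-fold as high at the median locus, with a range of 43.5 to 2498. The ratio was 100 or more for 229 loci and 1000 or more for 21, and for the 23 loci with 1 to 3 seed reads it is known only within a wide interval.

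Glyma.17G099800 had the highest ratio. It stood at 94.3, 73.2 and 91.1 in the seedling libraries and had 3 reads in seeds, 1 each in cotyledon replicate 3 and in early maturation replicates 1 and 3. The ratio of pooled levels was 2498, with an exact 95% interval of 854 to 12123 that covers counting error only. Glyma.01G134600 had 1 read in seeds, in cotyledon replicate 1, against 21.7, 23.1 and 30.6 in seedlings. Its ratio was 2192 with an interval of 392 to 86683, so the order of these loci is not resolved at this depth. PCR copies are not independent molecules, and intervals do not cover them. The intervals also leave out the spread between libraries. They make no allowance for the choice of these loci by the same values, so they are no test of seedlings against seeds. Both loci were named after their values were seen.

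At the other end, Glyma.01G151600 had reads in all 15 seed-stage libraries. Its values were 0.903, 0.926 and 0.908 in the cotyledon-stage libraries, from 6, 10 and 7 reads, and 0.951 in late maturation replicate 2. In seedlings it stood at 30.2, 28.5 and 26.9. Its ratio of 43.5 (95% interval for counting error only, 33.1 to 58.1) was the lowest of the 241. Low but repeated reads were also found at later stages. Glyma.07G022300 stood at 0.990, 0.904 and 0.868 in mid maturation, from 4, 4 and 2 reads, and at 50.3, 44.5 and 43.7 in seedlings. Glyma.17G030100 stood at 0.818, 0.761 and 0.659 in late maturation, from 3, 4 and 3 reads, and at 29.2, 34.0 and 33.2 in seedlings. Glyma.01G151600 and Glyma.17G030100 were named after their values were seen. For such loci reads were found in each replicate of a stage, at values below the limit of the rule and in part from fewer than 3 reads. A read in all 3 libraries of a stage was found for 74 loci at the cotyledon stage and for 77 in early maturation. For mid maturation the number was 30, for late maturation 16 and for dry seed 19, and these numbers also move with depth.

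The limit of 1 stood for different read numbers in different libraries. It allowed 10 reads in cotyledon replicate 2, the library with the lowest value per read among the seed stages, and 2 reads in mid maturation replicate 3, the shallowest library. Recovered reads ranged from 3572134 to 8776240 per library. A value of 3 reads, taken as the floor of detection, ranged from 0.263 to 1.30, so in mid maturation replicate 3 a locus under 1 was below that floor.

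Summed over the 241 loci, the seed-stage signal was small and not even across libraries. As a percentage of the mean seedling sum of 11307, it was 0.249%, 0.274% and 0.718% in the cotyledon-stage libraries. It was 0.337%, 0.315% and 0.387% in early and 0.385%, 0.310% and 0.365% in mid maturation. Late maturation stood at 0.195%, 0.203% and 0.245%, and dry seed at 0.196%, 0.191% and 0.221%. In these scaled values, late maturation and dry seed were thus lower than each early and mid maturation library. Cotyledon replicate 3 stood above every other seed-stage library. As a share of the summed values of each library, the order of single mid and late maturation libraries changed. Late maturation replicate 3 then held 0.00252%, above mid maturation replicate 2 at 0.00218%. The stage means kept their order, at 0.00256% for mid and 0.00215% for late maturation. Early and mid maturation, close together in the scaled values, stood apart as such shares. Early maturation held 0.00408%, 0.00387% and 0.00491%, and mid maturation 0.00283%, 0.00218% and 0.00266%. The rule holds all of these values under 1, so no test was run on them.

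**Figure D2:**
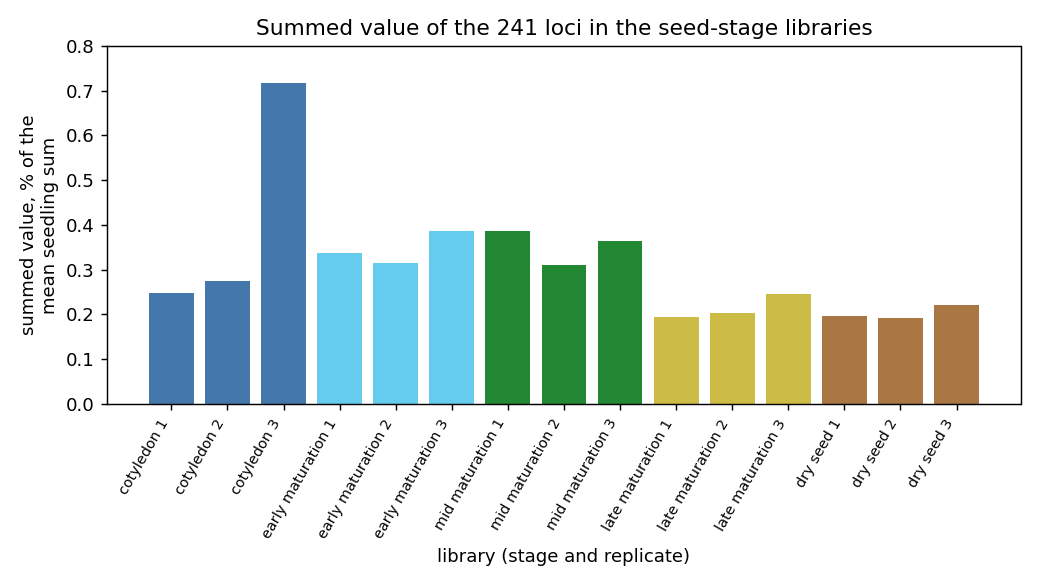
Summed value of the 241 seedling-only loci in each seed-stage library, as a percentage of the mean sum in the 3 seedling libraries. Bars are single libraries, coloured by stage, without error bars. Cotyledon replicate 3 stands at 0.718%, against 0.191% to 0.387% in the other 14 libraries.

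Cotyledon replicate 3 differed from its own stage at many of the loci. Its summed value was 2.75 times the mean of the other cotyledon-stage libraries, and 211 of the 241 loci had a read in it, against 108 and 138. It held the highest seed-stage value of 70 loci. Its percentage of the seedling level was the highest of the 15 libraries in each of 5 classes of seedling mean. Among the 81 loci with a mean of 20 to 30 it was 1.04%, against 0.542% and 0.538% in cotyledon replicates 1 and 2. For the 18 loci with a mean of 100 to 200 it was 0.370%, against 0.0704% and 0.0670%. The ratio to the other cotyledon-stage libraries was 1.93 in the lowest class and 5.38 in the highest. The rule held each of these values under 1, which limits the percentage more at higher seedling means. Nothing is therefore read from the change of these percentages and ratios with level. The classes were not drawn again with this library left out of the choice.

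Left out of the choice, cotyledon replicate 3 again stood above the other cotyledon-stage libraries at many loci, in values that the choice had not used. The rule without it found 268 loci, of which 184 (68.7%) were higher in it than in both other cotyledon-stage libraries. Over all 45781 loci with a read at this stage that share was 33.8%. For cotyledon replicates 1 and 2, left out in the same way, the shares were 13.6% and 17.8%, against 35.1% and 31.1% over all loci. The 27 loci gained without cotyledon replicate 3 stood at 1.04 to 3.50 in it, a median of 0.787% of their seedling mean. Their seedling means reached from 22.6 to 542, and 18 of them were at 100 or more. With the library left out, the chosen loci reached higher seedling levels and held 2.24% of the seedling pool, in place of 1.53% ± 0.0487 (SD, n = 3). What produced this signal was not tested.

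Leaving out any other seed-stage library changed the number of loci to between 241 and 251. The locus that departed most was Glyma.17G019300, which was kept out by 1 library. It stood at 40.4 in late maturation replicate 3 and at 0.273 and 0.951 in the other late maturation libraries, and at 51.1, 43.4 and 53.5 in seedlings. Its highest value in the remaining seed-stage libraries was 0.452. This locus was named after its values were seen.

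Seedling replicate 1 was lower than the other seedling libraries at a group of loci. The rule without that library found 271 loci, and in 25 of them (9.23%) replicate 1 stood below 66.7% of the mean of the other pair. Among 7975 other loci at 20 or more in both of those libraries the share was 0.439%. Left out in the same way, replicate 2 was below 66.7% of the others at 5 of 251 loci (1.99%, against 0.266% of other loci). Replicate 3 was so at 3 of 251 (1.20%, against 0.0250%). Values above 1.5 times the others were found at 1 locus (0.369%, against 0.0125% of other loci) in replicate 1. In replicate 2 they were found at 2 loci (0.797%, against 0.0605%), and in replicate 3 at 4 loci (1.59%, against 0.0626%). Departures in either direction thus took a larger share of the chosen loci than of other loci in each library. The 241 loci were also somewhat less even than others of like level. Their median coefficient of variation was 8.16%, against 6.33% among 7354 other loci at 20 or more in each seedling library and no higher than the highest of the 241. No test was run on these shares.

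The largest departure was at Glyma.U027300, with 3.56 in seedling replicate 1 and 26.0 and 27.2 in replicates 2 and 3, which kept it out of the 241. Within the 241, Glyma.17G147500 stood at 28.4, 112 and 97.4 and had the largest coefficient of variation, 56.4%. Glyma.07G243500 stood at 76.8, 138 and 138. In both of these loci replicate 1 was low while replicates 2 and 3 lay close together. Over the 25 loci the ratio of replicate 2 to replicate 3 had a median of 1.09, with a range of 0.771 to 1.51. The 25 loci, 9 of them within the 241, carried the numbers of 14 chromosomes in their identifiers, and 1 was not placed on a chromosome. Replicates 1, 2 and 3 had 7381757, 5195421 and 8472161 reads, and the part of depth in this difference was not tested. These loci were named after their values were seen.

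**Figure D3:**
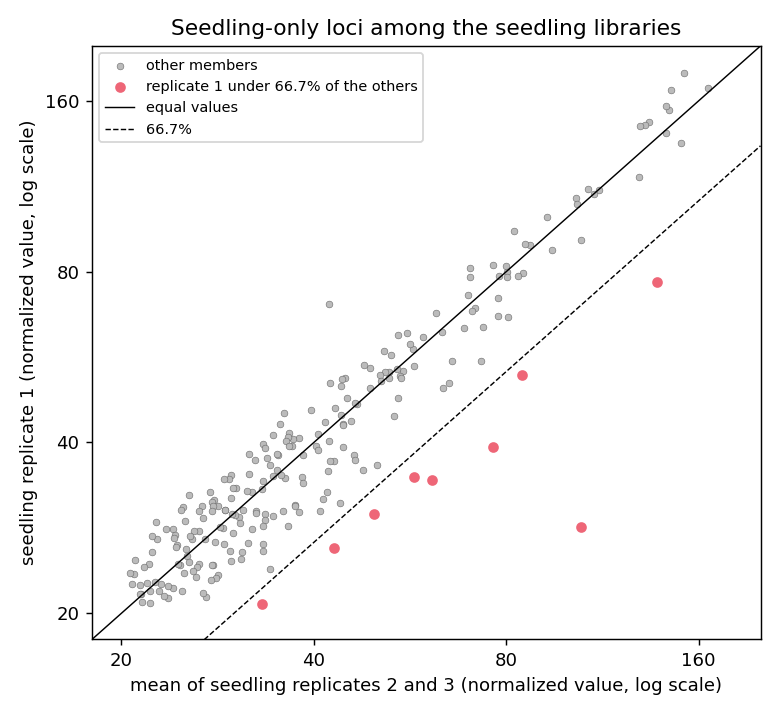
Seedling-only loci in seedling replicate 1 (vertical axis) against the mean of replicates 2 and 3 (horizontal axis), both as normalized values on log scales. Each point is 1 of the 241 loci, the solid line marks equal values and the dashed line 66.7%. The 9 loci in red lie below the dashed line, the farthest being Glyma.17G147500 at 28.4 in replicate 1.

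In a soybean identifier the digits before the letter G name the chromosome, and the following number rises along it. Of the 241 loci, 240 lay on the 20 chromosomes, each of which held some, and 1 was not placed. Chromosome 11 carried 22 of them among 2424 listed loci (0.908%), and chromosome 7 carried 17 of 2533 (0.671%). Chromosome 2 carried 6 of 2931 (0.205%) and chromosome 19 carried 6 of 2438 (0.246%). Over all loci the share was 0.468%. Set against loci at 20 or more in each seedling library, the share was 5.03% on chromosome 11, 1.35% on chromosome 2 and 2.98% over all loci. With the order of loci on each chromosome cut into 10 equal parts, a part held 15 to 30 of the 241, the fewest in the third part and the most in the last. No test was run on these shares, since neighbouring loci can be copies of one another.

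**Figure D4:**
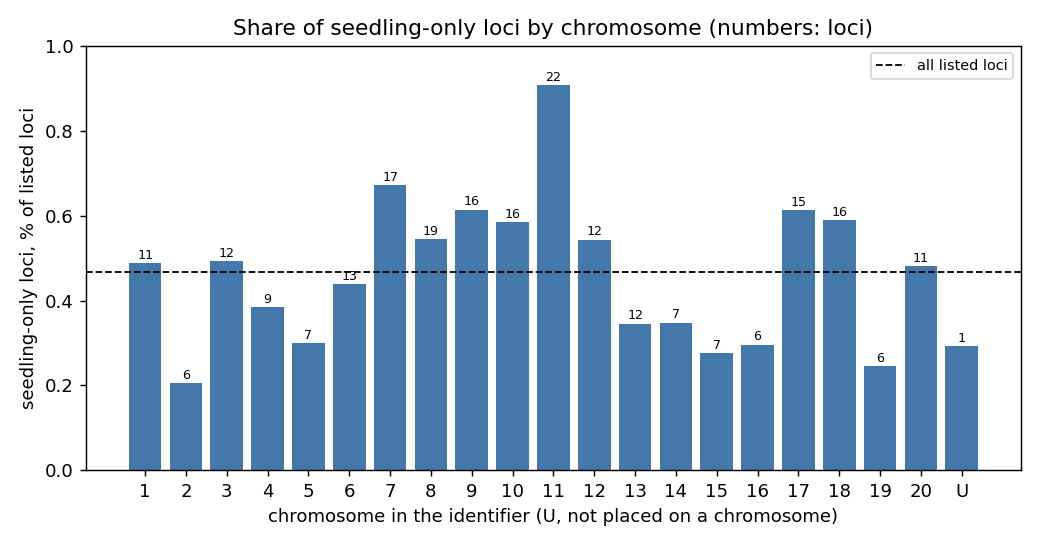
Seedling-only loci as a percentage of the loci listed on each chromosome, with the number of seedling-only loci above each bar. The dashed line is the share over all 51546 loci, 0.468%. Chromosome 11 has the highest share, 0.908%, and chromosome 2 the lowest, 0.205%.

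Some of the loci lay next to each other. In the order of identifiers, 8 pairs of the 241 were direct neighbours among the listed loci, which makes 16 loci (6.64%), and no run was longer than a pair. Of the 479 loci next to a seedling-only locus, 3.34% were themselves seedling-only, against 0.468% of all loci. Neighbouring copies of a gene can share reads, so the members of a pair cannot always be told apart.

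Values of both loci are given for 3 of the pairs. Glyma.09G281800 stood at 39.3, 77.8 and 74.7 in seedling replicates 1, 2 and 3, and its neighbour Glyma.09G281900 at 29.9, 48.6 and 50.7. Both were low in replicate 1. Glyma.08G339400 stood at 38.2, 24.8 and 38.6, and Glyma.08G339500 at 53.1, 42.3 and 60.9. Both were low in replicate 2. Glyma.08G179600 stood at 100, 96.2 and 89.2, and Glyma.08G179700 at 69.0, 76.8 and 66.3. Both were lowest in replicate 3, while replicates 1 and 2 stood in opposite order. The highest seed-stage values of the 16 loci ran from 0.129733 in Glyma.15G228200 to 0.868 in Glyma.08G339500. These pairs were named after their values were seen.

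The loci beside the 241 allow a comparison that the rule did not make, since it used their values only to leave them out. Of 463 such neighbours, 343 reached a value of 1 in 3 or more libraries and entered the limma fit of log2(value + 1) over 36872 loci. A call required a log2 difference of 1 or more with a Benjamini-Hochberg adjusted p under 0.05. Against dry seed, 174 of the 343 neighbours (50.7%) were higher in seedlings and 53 (15.5%) lower. Over all loci tested, 41.8% were higher and 19.8% lower. The median log2 difference was 1.07 for the neighbours and 0.58 for all loci. Against the cotyledon stage, 125 neighbours (36.4%) were higher and 66 (19.2%) lower, beside 28.4% and 22.7% of all loci. The median log2 differences were 0.23 and -0.01. The share that was higher lay above that of all loci by 8.95 percentage points against dry seed and by 8.03 against the cotyledon stage. The comparisons share the seedling libraries. Where a neighbour is a copy of the seedling-only locus beside it, they can share reads. The part of such sharing in the excess was not tested.

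With neighbours taken up to 5 places away, the direct neighbours included, the excess was smaller. Among 1617 such tested loci, 45.3% were higher than in dry seed and 32.9% higher than at the cotyledon stage. The filter keeps loci seen in the 3 seedling libraries alone, and with no filter 38.7% of 463 neighbours and 30.6% of all loci were higher than in dry seed. Without seedling replicate 1, 2 or 3, fewer loci passed the filter, and 75 of 289, 290 and 288 tested neighbours were called higher than at the cotyledon stage. These are 25.95%, 25.9% and 26.04%, against 22.6%, 23.0% and 22.6% of all loci, so the gap of 8.03 points narrowed to 3.33, 2.86 and 3.49. The medians were then -0.01, -0.01 and -0.07 for the neighbours and -0.15, -0.13 and -0.15 for all loci. Against dry seed, the gap of 8.95 points narrowed to 5.65, 4.41 and 5.01 with the same libraries left out. All 241 seedling-only loci were called higher in both comparisons, which the rule itself brought about and from which nothing is read.

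The fixed limit of 1 in seeds shaped which loci were found. Of 8076 loci at 20 or more in each seedling library, 241 (2.98%) were under 1 in every seed-stage library. The share was 3.22% among loci with a seedling mean of 20 to 30 and 2.72% among those of 100 to 200. It was 0 of 230 at 200 to 400 and 0 of 125 at 400 or more. With a limit relative to the level of each locus, a highest seed-stage value under 5% of the seedling mean, 448 loci were found and all of the 241 were among them. That share rose with level, from 3.61% at 20 to 30 through 9.68% at 100 to 200 to 23.2% at 400 or more. A limit of 5% allows a higher seed-stage value the higher the seedling mean, so nothing about the loci is read from this rise. This relative limit was chosen after seeing the data. Loci near the limits differed little across them. Glyma.11G224600, just inside, reached 0.990 in mid maturation replicate 1, and Glyma.17G140400, just outside, reached 1.02 in cotyledon replicate 2. Glyma.14G160100, just inside, had a lowest seedling value of 20.3, and Glyma.11G062500, just outside, one of 19.96.

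**Figure D5:**
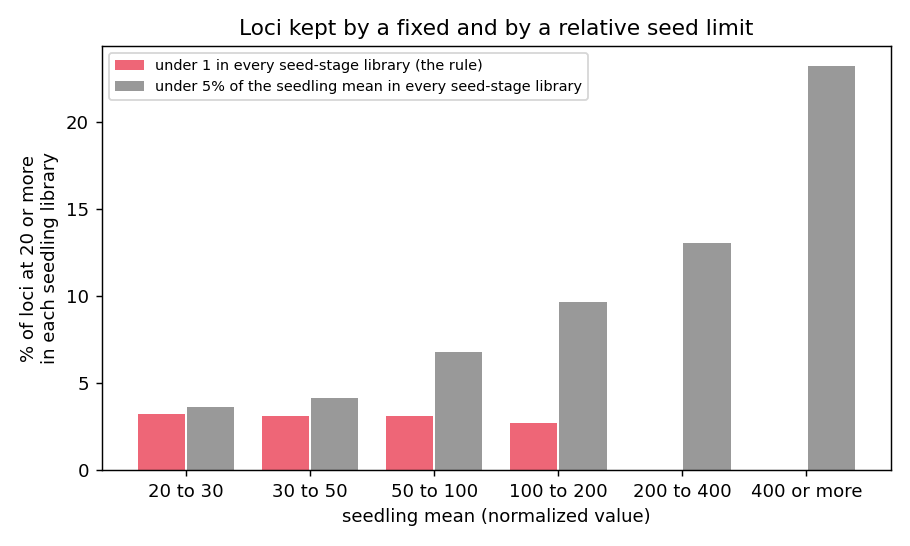
Percentage of loci at 20 or more in each seedling library that stayed under 1 in every seed-stage library (red) or under 5% of their seedling mean there (grey), by seedling mean. The red bars are near 3% up to a mean of 200 and absent above it. The grey bars rise to 23.2% at 400 or more, under a limit that itself rises with the seedling mean.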

How the data were processed

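Each deposited file held 1 normalized signal value per locus and library, made by the authors. The submitters' processing notes name Bowtie 0.12.7 and edgeR 3.0.8; genome build, annotation and counting are not stated there. Within a library each value was a whole multiple of the value of 1 read, and 927825 of 927828 values lay within 0.05 of a whole read. Reads were recovered by dividing by that value. The 241 loci and all lists and tests were chosen with earlier results of these data known. Lists by product name could not be used without names.

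Loci were chosen and summed in Python 3.11.15. All loci were fitted with limma 3.58.1 in R 4.3.3, in 1 model for the 18 libraries. Tests were two-sided, with a trend of variance with level. The procedure was tested on simulated data in which far fewer loci changed than were called here. That simulation does not cover changes this broad. Alternatives included edgeR 4.0.16 and DESeq2 1.42.0 on recovered reads. Loci were named by rule for the highest seedling means, the extremes of variation and values near the limits. Those named for their ratios, repeated seed-stage reads, departures of 1 library or neighbouring positions were named after their values were seen. The p-values measure the spread between samples labelled biological replicates.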

Additional observations from a re-analysis of the deposited data

How the results depend on the processing

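The number of loci followed the limits of the rule. It was 547 with a seedling minimum of 10 and 61 with 50, 107 with a seed maximum of 0.5 and 365 with 2, and 448 with the relative limit. Other scalings gave 216 (upper quartile), 281 (median of ratios) and 355 (no scaling factors) loci, and thinning to the shallowest library 213, of which 209, 241, 218 and 199 were among the 241. In the same order of limits, the loci held 2.20%, 0.718%, 0.597%, 2.73% and 7.55% of the seedling pool, and 1.48%, 1.66%, 1.79% and 1.38% under the scalings and thinning. Loci without a seed read numbered 3 at a minimum of 10 and 2 after thinning. Loci beside another numbered 56, 2, 8, 32 and 44 under the limits, 34 with no scaling factors and 28 within 5 places.

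With each library left out in turn, the number of loci ranged from 241 to 271, their pool share from 1.53% to 2.24%, those without a seed read from 0 to 1 and those beside another from 16 to 24. Neighbours called higher ranged from 120 to 177 against dry seed and from 75 to 127 against the cotyledon stage. A pseudocount of 4 gave 9695 loci higher than in dry seed, against 15403. Within 5 places, 733 and 532 neighbours were called higher than in dry seed and at the cotyledon stage. Upper-quartile rescaling moved the median log2 difference of all loci from dry seed from 0.58 to 0.28. In all 28 other settings of the fit, the share of neighbours called higher exceeded that of all loci in both comparisons, by 2.86 to 10.6 percentage points.

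Deviations from the stage mean in same-numbered libraries of seedlings and of dry seed or the cotyledon stage correlated at -0.0177 to 0.0510. This gave no sign of pairing by replicate number. Libraries with different numbers were not compared, so pairing is not excluded. The other stages were not examined for this. With the replicate number as a block, 15404 loci were higher and 7284 lower than in dry seed, and 10477 and 8386 against the cotyledon stage. Depth limits what a value under 1 can show, from 2 reads in the shallowest library to 10.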
